A study of Mus musculus with 4 samples.

Results

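The genes described here encode the nuclear subunits of the mitochondrial respiratory chain and the ATP synthase, with a few of their assembly factors. They were chosen by symbol alone: a probe set belonged if its single annotated symbol began with Nduf, Sdha to Sdhd, Uqcr, Cox4 to Cox8, Atp5, Cyc1 or Cycs. That pattern took 103 probe sets of 75 genes, out of 8251 genes on the array with a probe set of 1 symbol, and the probe set with the highest mean signal stood for each gene. The series compared mouse embryonic stem (ES) cells, pluripotent cells of the inner cell mass, with extraembryonic endoderm (XEN) cells, lines of the lineage that forms the yolk sac endoderm, on Affymetrix MG_U74Av2 arrays. The ES group was 1 array of R1 cells, grown undifferentiated with LIF on gelatin. There were 3 XEN arrays. IM8A1-I and IM8A1-II are a single line, IM8A1 (PO strain), at passage 27. The first of them grew in 70% EMFI-CM (an abbreviation the labels do not spell out) on gelatin. IM8A1-II was kept in RPMI 1640 with 20% FBS, on tissue culture plastic, for 4 days. XEN1-3 (ICR strain, passage 18) had the substrate and medium of IM8A1-I. No treatment or engineered allele is named in the labels, and no group is described as pooled.

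The respiratory chain passes electrons from NADH (through complex I) and succinate (through complex II) to ubiquinone, then through complex III, cytochrome c and complex IV to oxygen. Complexes I, III and IV pump protons, and the ATP synthase lets them flow back to make ATP. ES cells are known for drawing much of their ATP from glycolysis while keeping a working respiratory chain. A few subunits come in tissue isoforms, such as muscle forms of Cox6a, Cox7a and Cox8 and testis forms of Cox6b and Cox8.

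Signal is in arbitrary units on a linear scale, with a median over all probe sets of 46.9 to 52.3 on the 4 arrays. Values under 27.3 units, the 40th percentile, were treated as background. Differences are in log2(signal + 10.5 units), which understates the change of dim genes. All 3 XEN arrays came from 1 chip lot and the ES array from another, and lot and cell type therefore cannot be told apart. The run record of XEN1-3 carries a message that no fluid was detected. The markers followed the labels: all 6 ES cell markers fell and all 8 endoderm markers rose in XEN, among them Pou5f1 (3191 units in ES, 2.17 ± 0.404 in XEN, SD, n = 3) and Gata6 (13.1 and 1842 ± 700.1). Of 10 fibroblast or feeder markers Col3a1, Dcn, Postn and Prrx1 were under the limit on all arrays, 1 (Thy1) fell, and the summed signal of the 10 was 1156 in ES and 681 to 842 in XEN. Within that sum members went both ways: Col1a2 had 206 units in ES and 352 to 403 in XEN, and Twist1 had 11.8 in ES and 156, 87.5 and 5.8 in XEN, while Tagln had 538 in ES and 36.1 to 214 in XEN. Of 8 trophoblast markers Cdx2, Elf5 and Tpbpa were under the limit on all arrays. Tfap2c and Esrrb fell among the 5 tested, against 5.04% of all probe sets, while Ascl2, Eomes and Hand1 were not called. Hand1 ranged from 20.8 to 68.9 units in XEN, around its ES value of 64.5. The summed signal of the 8 was 979 in ES and 106 to 129 in XEN. Of that, Tfap2c made up 767 in ES and 10.8 to 14.8 in XEN. Whether trophoblast cells were present was not tested. Of 9 striated muscle markers Mb, Myh6 and Myl2 were under the limit on all arrays, and 1 (Myh7) rose. The summed signal was 345 in ES and 563 to 1154 in XEN, of which Myh7 made up 31.5 in ES and 286.5 to 748.4 in XEN. Tnni3 ran the other way, with 60.4 units in ES and at most 33.1 in XEN. The part of other cell types in the results below was not tested.

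No gene of the respiratory chain or ATP synthase passed the test between XEN and ES. Of the 75 genes, 69 reached the limit on at least 1 array and were tested, and 65 did so on all 4. At a limma adjusted p under 0.05, 0 of the 69 were higher and 0 lower in XEN, while 10.6% of all 8583 tested probe sets passed. At an unadjusted p under 0.05 there were 8 genes, 2 higher and 6 lower, or 11.6% of the 69 against 29.7% of all probe sets. The median log2 difference (XEN minus ES) was -0.10 over the members and 0.05 over all tested probe sets. It was 0.04 without IM8A1-I and -0.22 without XEN1-3. Mean differences of at least 2-fold were found for 2 of the 69 genes, or 2.90%, compared with 25.1% of all probe sets. Among probe sets at or above the limit on all arrays, 19.6% differed at least 2-fold and 27.6% had an unadjusted limma p under 0.05. For the 65 members at that level these shares were 1.54% and 10.8%.

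A missed threshold does not show that levels were equal, so the intervals matter here. The 95% interval of the difference, unadjusted, lay wholly within 2-fold in either direction for 24 of the 69 genes, or 34.8%, against 18.0% of all probe sets. Among the 65 members at or above the limit on all arrays it was 36.9%, against 23.2% of the probe sets at that level. For 45 of the 69 genes the interval reached past 2-fold at 1 array against 3. The single ES array had no spread of its own and was assumed to vary as the XEN arrays do. These p-values measure only the spread between the 3 XEN cultures, 2 of which are the same line. In bulk RNA, fewer cells with a transcript and less of it per cell cannot be told apart. The signal of the ES array lay within the range of the 3 XEN arrays for 29 genes (42.0%, against 27.1% of all probe sets), above all of them for 26 (37.7%, against 34.0%) and below all of them for 14 (20.3%, against 38.9%).

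**Figure D1:**
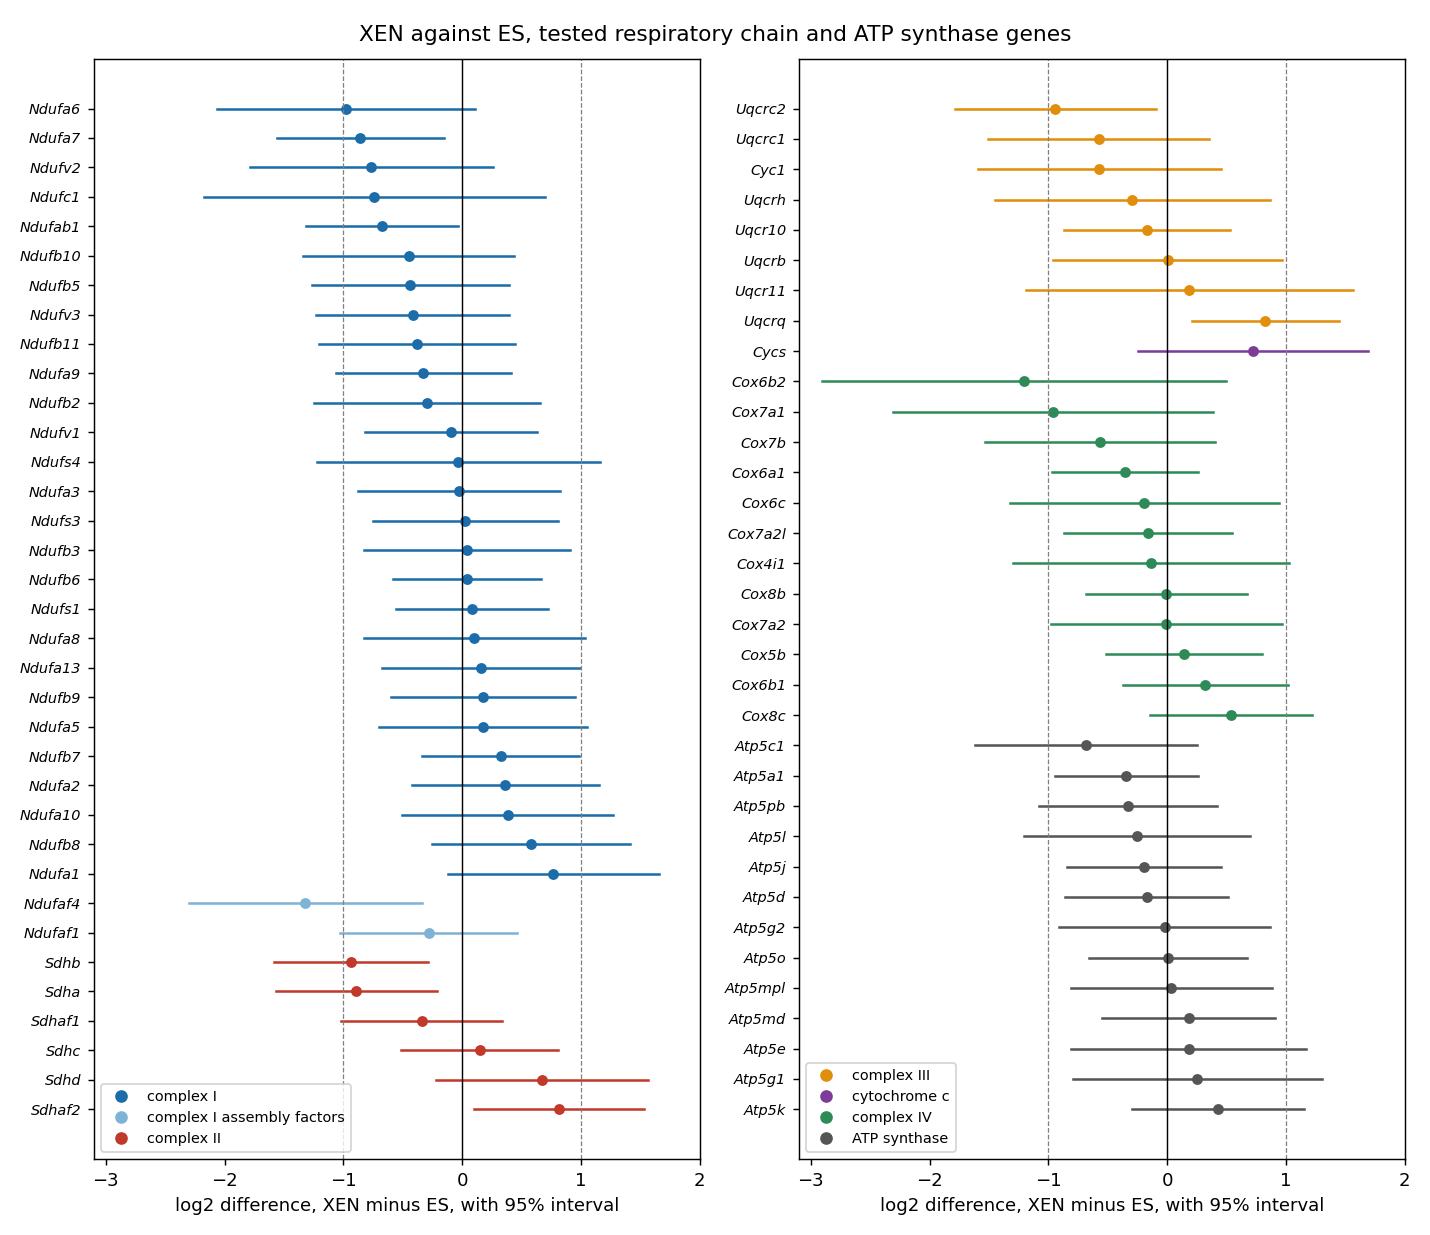
Log2 difference of XEN minus ES (x axis) for the 69 tested genes (y axis, by complex), with the 95% interval from limma as a line; dashed lines mark 2-fold. Most points lie between the dashed lines, Ndufaf4 and Cox6b2 lie beyond -1, and no gene passed the adjusted threshold.

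Complex II, succinate dehydrogenase, is the chain's link to the citric acid cycle. Its 2 catalytic subunits, Sdha and Sdhb, lay below ES on all XEN arrays, and the membrane anchor Sdhd lay above it. The other anchor, Sdhc, was close to ES (0.15 ± 0.27 in log2, SE), and none of these genes passed limma's test. Promoter stretches are shown for Sdha, Sdhb and Sdhd because these subunits of the same enzyme lay on different sides, and for Ndufaf4 because it had the largest difference in log2 of all members. Each is the 120 bases before the annotated start, from RefSeq on GRCm38.p6, read 5′ to 3′ on the gene's strand. Capitals mark letters of 4 motifs searched on both strands: GCGCANGCG (part of the site bound by NRF1, a regulator of respiratory genes), CCGGAAG (the ETS core bound by GABPA), AAGATGGCG (YY1) and TCAAGGTCA (the estrogen-related receptors). The Sdha stretch lies at chr13:74350241-74350360 on the minus strand, that of Sdhb at chr4:140961151-140961270 on the plus strand, that of Sdhd at chr9:50603850-50603969 on the minus strand and that of Ndufaf4 at chr4:24897963-24898082 on the plus strand.
Sdha: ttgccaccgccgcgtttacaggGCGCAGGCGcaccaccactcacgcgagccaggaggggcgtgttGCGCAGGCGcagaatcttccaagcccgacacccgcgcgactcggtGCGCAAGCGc
Sdhb: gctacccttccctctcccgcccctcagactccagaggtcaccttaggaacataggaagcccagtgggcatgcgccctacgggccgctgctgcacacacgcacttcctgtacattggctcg
Sdhd: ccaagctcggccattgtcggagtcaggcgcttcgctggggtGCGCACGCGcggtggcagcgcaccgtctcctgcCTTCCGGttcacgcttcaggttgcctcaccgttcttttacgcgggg
Ndufaf4: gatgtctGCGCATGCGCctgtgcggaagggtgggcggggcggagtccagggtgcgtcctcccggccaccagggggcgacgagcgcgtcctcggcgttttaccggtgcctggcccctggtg

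The Sdha stretch held the NRF1 letters at 3 places, that of Sdhd the NRF1 and ETS letters at 1 place each, and that of Ndufaf4 the NRF1 letters at 1 place, on both strands and overlapping. The Sdhb stretch held none of the 4, and ETS letters follow its start, from base 6 to 12. Windows of 300 bases (250 before to 50 after the start) were found in RefSeq for 61 of the 75 members. The NRF1 letters were in a window of 16 of the 61 (26.2%) and of 7.03% of all 27025 genes with a window, and the ETS letters in 18 (29.5%) and 9.93%. The YY1 letters were in 5 members (8.20%) and 1.64% of all genes, and the receptor letters in 1 member, Sdhd (1.64%), and 0.466%. A match is a description of the letters and shows no binding. Different motifs did not overlap in the printed stretches.

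Sdhb, the iron-sulfur subunit that hands electrons on to ubiquinone, had 812 units in ES and 433, 446 and 386 in XEN (arrays always in the order IM8A1-I, IM8A1-II, XEN1-3). All 3 XEN arrays lay close together and below ES. The difference was -0.93 ± 0.26 in log2 (SE; interval -1.58 to -0.28) and did not pass limma's test, with an adjusted p = 0.0787, the lowest among the members. Sdha, the flavoprotein that oxidises succinate, had 140.0 units in ES and 77.1, 65.1 and 70.7 in XEN. Here too ES stood above all 3, with a log2 difference of -0.89 ± 0.27 (limma adjusted p = 0.0954).

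The anchor subunits hold the enzyme in the inner membrane and bind ubiquinone. Sdhd had 699 units in ES and 858, 1110.1 and 1476 in XEN, so that ES was below all 3 arrays, by 0.67 ± 0.36 in log2 (limma adjusted p = 0.271). Sdhc had 796 units in ES and 989.9, 802 and 868 in XEN. The lowest XEN array was almost at the ES level, and the difference of 0.15 ± 0.27 lay in an interval of -0.51 to 0.81, within 2-fold. The assembly factors of the complex were also split. Sdhaf2, which helps attach the flavin to Sdha, had 73.0 units in ES and 145, 150.3 and 116 in XEN, a difference of 0.81 ± 0.29 (limma adjusted p = 0.129). Sdhaf1, which protects the iron-sulfur centres of Sdhb, had 209.9 units in ES and 183, 151 and 158 in XEN, a difference of -0.34 ± 0.27 (limma adjusted p = 0.447). ES lay outside the XEN range for all 6 genes of this group, above it for 3 and below it for 3, as it did for 72.9% of all probe sets. At an adjusted p under 0.05 limma called 0 of the 6, and at an unadjusted p under 0.05 it called 3, Sdha, Sdhb and Sdhaf2, against 29.7% of all probe sets.

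**Figure D2:**
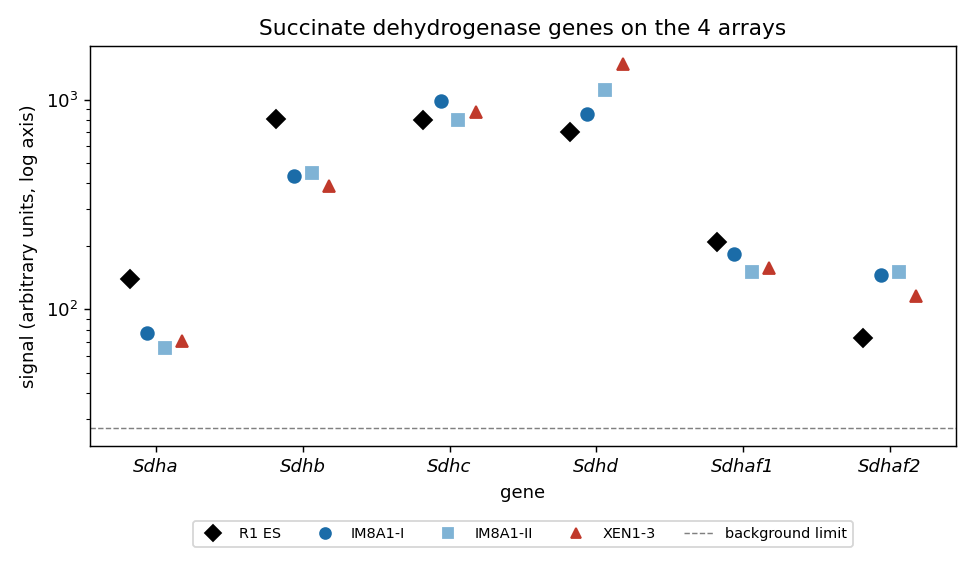
Signal in arbitrary units (log axis) of the 6 succinate dehydrogenase genes on the R1 ES array and the 3 XEN arrays, with the background limit of 27.3 units dashed. ES is above the XEN arrays for Sdha, Sdhb and Sdhaf1 and below them for Sdhc, Sdhd and Sdhaf2.

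Complex I, the NADH dehydrogenase, had 29 genes among the members, of which 27 were tested. None passed limma's test, and the median difference was -0.03 with a range of -0.98 to 0.77. At an unadjusted p under 0.05 limma had 2 genes lower and 0 higher. That was 7.41%, against 29.7% of all probe sets in either direction. By symbol, the medians were -0.06 for the 6 Ndufs and Ndufv genes (which include the core that takes electrons from NADH), 0.10 for 11 Ndufa genes and 0.04 for 9 Ndufb genes. Ndufs3, a core subunit of the arm that delivers electrons to ubiquinone, had 608 units in ES and 609.7, 514 and 762 in XEN, a difference of 0.03 ± 0.31. ES stood between the XEN arrays. Ndufa3, a small membrane subunit, had 539.8 units in ES and 417, 522 and 679.8 in XEN (-0.03 ± 0.34).

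The lowest differences in complex I were those of Ndufa6, Ndufa7 and Ndufv2. Ndufa7 had 2769.7 units in ES and 1568, 1285 and 1764 in XEN. ES was above all 3, with a log2 difference of -0.86 ± 0.29 (limma adjusted p = 0.113). Ndufa6, which binds the mitochondrial acyl carrier protein, had 259.8 units in ES and 112, 92.4 and 196 in XEN, a difference of -0.98 ± 0.44 (limma adjusted p = 0.203). XEN1-3 was the nearest to ES, and without it the difference was -1.27 and passed (limma adjusted p = 0.0296). In that fit the XEN replicates are 2 cultures of the single line IM8A1, and 8.52% of all probe sets were called lower, against 5.04% with all arrays. The acyl carrier protein itself, Ndufab1, had 880.1 units in ES and 564, 505 and 579 in XEN (-0.67 ± 0.26, limma adjusted p = 0.153). It is named here after its values were seen. A probe set annotated to both Ndufab1 and Ndufab1-ps was left out of the members. It had 609.5 units in ES and 514, 410 and 654 in XEN (-0.24, limma adjusted p = 0.679). Ndufv2, an iron-sulfur subunit beside the NADH site, had 1067 units in ES and 463, 579 and 909 in XEN, a difference of -0.76 ± 0.41 (limma adjusted p = 0.276). Its second, dimmer probe set had 81.9, 71.7, 90.6 and 101 units, a difference of 0.08.

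In the other direction, Ndufa1, a small membrane subunit needed for assembly, was near the limit, with 26.6 units in ES and 42.5, 48.7 and 69.8 in XEN. The difference of 0.77 ± 0.36 did not pass (limma adjusted p = 0.219). Ndufc1, a membrane subunit, showed the widest gap between lines in this complex. It had 406 units in ES and 146, 213 and 436 in XEN, so that ES and XEN1-3 were alike and both IM8A1 arrays lay lower (-0.74 ± 0.58, limma adjusted p = 0.441). Ndufa12 and Ndufc2 were under the limit on all arrays and were not tested.

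Of the factors that help build complex I, Ndufaf4 had 95.6 units in ES and 47.6, 26.5 and 25.2 in XEN. The arrays of IM8A1-II and XEN1-3 were under the limit. Its difference of -1.32 ± 0.40 (interval -2.30 to -0.34) was the largest in size of all members and did not pass limma's test (adjusted p = 0.0898). Ndufaf1 had 128 units in ES and 85, 110 and 117 in XEN (-0.28 ± 0.30, limma adjusted p = 0.572).

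Complex III, which moves electrons from ubiquinone to cytochrome c, had 8 tested genes, 3 with a positive and 5 with a negative difference, and a median of -0.23. Over all tested probe sets 4549 differences were positive and 4034 negative. Uqcrq, a small subunit of the complex, had 1174 units in ES and 2274, 1959 and 2059 in XEN. It was the clearest case of higher signal in XEN, with 3 arrays close together and all above ES, at 0.83 ± 0.25 in log2 (interval 0.21 to 1.44), yet it missed the threshold (limma adjusted p = 0.0908). The core protein gene Uqcrc2 had 1300.2 units in ES and 621, 553 and 883 in XEN, a difference of -0.94 ± 0.34 (limma adjusted p = 0.135). With the 2 IM8A1 cultures alone it was -1.14 and passed (limma adjusted p = 0.0421), where 8.52% of all probe sets were called lower. The other core protein gene, Uqcrc1, had 1301 units in ES and 916, 633 and 1134 in XEN (-0.58 ± 0.38, limma adjusted p = 0.357).

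Among the smaller subunits of complex III the XEN arrays were uneven. Uqcr11 had 251 units in ES, 212 in both IM8A1 cultures and 522 in XEN1-3. The hinge protein gene Uqcrh had 740.1 units in ES and 374, 747 and 781 in XEN, so that only IM8A1-I was low. Uqcrb had 1056 units in ES and 855, 917 and 1519 in XEN (0.00 ± 0.39), and Uqcr10 had 747 in ES and 774, 636 and 591 in XEN (-0.17 ± 0.28). Cyc1, cytochrome c1, had 2525 units in ES and 1836, 1159 and 2296 in XEN on the chosen probe set, a difference of -0.57 ± 0.41 (limma adjusted p = 0.402). A second probe set of Cyc1 ran the other way, with 488 units in ES and 595, 624 and 769.9 in XEN (0.42 ± 0.28), so this gene has no settled direction. Cycs, the mobile carrier cytochrome c, had 103 units in ES and 126, 182 and 238 in XEN. All 3 XEN arrays lay above ES, by 0.72 ± 0.39 (interval -0.24 to 1.69; limma adjusted p = 0.274).

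Complex IV, cytochrome c oxidase, had 15 genes, of which 12 were tested, 3 with a positive and 9 with a negative difference (median -0.15). Of all tested probe sets 4549 had a positive and 4034 a negative difference. None of the 12 passed limma's test, and 0 had an unadjusted p under 0.05, against 29.7% of all probe sets. Cox6b2, known as the testis form of a subunit on the cytochrome c side, had 529 units in ES and 137, 167 and 482 in XEN. ES and XEN1-3 were near each other and the IM8A1 cultures well below. The difference over the group was -1.20 ± 0.69 (limma adjusted p = 0.298), and with the 2 cultures of the IM8A1 line alone it was -1.74 and passed (limma adjusted p = 0.0115), where 8.52% of all probe sets were called lower. On its second probe set the IM8A1 cultures were lowest too, with 88.2 units in ES, 25.7 and 39.7 in the IM8A1 cultures and 124 in XEN1-3, while another was near the limit (23.7, 17.7, 27.9 and 30.4). The widespread form Cox6b1 had 58.4 units in ES and 68.2, 82.4 and 77.2 in XEN (0.32 ± 0.28, limma adjusted p = 0.487).

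The other isoform families gave no call. Cox6a1, the form of most tissues, had 2354 units in ES and 1732, 1990.5 and 1810 in XEN, a difference of -0.35 ± 0.25. The muscle form Cox6a2 was under the limit on all arrays. Cox7a2, the form of most tissues, had 1294 units in ES and 956, 1242 and 1802 in XEN (-0.01 ± 0.39), and Cox7a2l, a factor for joining complexes III and IV, had 889 in ES and 894, 671 and 839 in XEN (-0.16 ± 0.29). The muscle form Cox7a1 was above the limit only in ES, with 32.5 units there and 4.1, 22.3 and 12.2 in XEN (-0.96 ± 0.55, limma adjusted p = 0.296). When signals under the limit were set to it, so that the 3 XEN arrays shared 1 value, the difference was -0.25 and passed (limma adjusted p = 0.0196), where 6.26% of all probe sets were called lower. Among the Cox8 genes the muscle form Cox8b had 86.7 units in ES and 78.9, 87.0 and 93.2 in XEN (-0.01 ± 0.27). The testis form Cox8c had 172 in ES and 225, 268 and 273 in XEN (0.54 ± 0.28, limma adjusted p = 0.254). A second probe set of each was under the limit on all arrays, with 14.4 to 21.5 units for Cox8b and 1.3 to 1.7 for Cox8c. The probe set of Cox8a, the form of most tissues, was under the limit on all arrays.

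In a further 3 subunits of complex IV, IM8A1-I was the lowest array. Cox7b had 922 units in ES and 459.7, 600.4 and 859 in XEN (-0.57 ± 0.39, limma adjusted p = 0.383). Cox6c had 1945 units in ES and 1074, 2038 and 2248 in XEN. Cox4i1, the main form of the largest nuclear subunit, had 101 units in ES and 55.8, 96.6 and 136 in XEN. Cox5a was under the limit on all arrays and was not tested.

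The ATP synthase showed the smallest spread of differences among the large complexes. Of its 14 genes 13 were tested, with a range of -0.68 to 0.43 and a median of -0.02. None passed limma's test, and 0 had an unadjusted p under 0.05, against 29.7% of all probe sets. The interval lay within 2-fold for 7 of the 13. Atp5a1, the alpha subunit of the catalytic head, had 3070 units in ES and 2468, 2233 and 2574 in XEN, a difference of -0.34 ± 0.24 (limma adjusted p = 0.395). Atp5c1, the rotating gamma subunit, had 2060.0 units in ES and 1000.1, 1176 and 1789 in XEN. ES was above all 3, with XEN1-3 nearest (-0.68 ± 0.38, limma adjusted p = 0.287), and a second probe set gave -0.40. Atp5o, the stalk protein that confers oligomycin sensitivity, had 994 units in ES and 942, 1135 and 935 in XEN (0.01 ± 0.27).

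The membrane part of the synthase included the ring-forming c subunit, which several genes encode with the same mature protein. Atp5g1 had 37.2 units in ES, 57.7 in both IM8A1 cultures and 29.2 in XEN1-3 (0.25 ± 0.42). Atp5g2 had 355 units in ES, 432 and 383 in the IM8A1 cultures and 259 in XEN1-3 (-0.02 ± 0.36). XEN1-3 was the lowest array for both on these probe sets. A second, dim probe set of each ran the other way, with XEN1-3 highest: it had 21.7 units in ES and 23.6, 29.9 and 30.0 in XEN for Atp5g1. For Atp5g2 it had 13.0 units in ES and 15.4, 13.3 and 30.4 in XEN. Atp5k, subunit e, had 38.6 units in ES and 51.0, 55.3 and 60.6 in XEN (0.43 ± 0.29, limma adjusted p = 0.379), and Atp5pb, subunit b of the stalk, had 65.0 in ES and 58.0, 44.6 and 46.9 in XEN (-0.33 ± 0.30, limma adjusted p = 0.507). Atp5l, subunit g, had 1132 units in ES and 876, 733 and 1330 in XEN (-0.25 ± 0.39). Atp5e, the epsilon subunit, had 227 units in ES and 289.6, 179 and 334 in XEN (0.18 ± 0.40). Atp5d, the delta subunit, has 5 probe sets, of which the brightest had 255 units in ES and 233, 198 and 247 in XEN (-0.17 ± 0.28), and one near the limit ran the other way (0.69). Atp5j2 was under the limit on all arrays.

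Between XEN arrays the values are those of single arrays, with no test. The median difference of IM8A1-II minus IM8A1-I, the same line in different media, was 0.06 over the 69 genes, with 37 of 69 above 0 (51.5% of all probe sets were) and 1 at least 2-fold (6.01%). That gene was Cox7a1, under the limit in both cultures. XEN1-3 stood above IM8A1-I by a median of 0.32, with 50 of 69 genes above 0, against 53.6% of all probe sets. It stood above IM8A1-II by a median of 0.29, with 54 of 69 above 0, against 52.3%. The medians over all tested probe sets were 0.04 and 0.03. At least 2-fold differences numbered 6 and 3, against 9.10% and 9.46% of all probe sets, and all were higher in XEN1-3.

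XEN1-3 was the highest XEN array, above both IM8A1 cultures, for 47 of the 69 genes, or 68.1%, against 39.2% of all tested probe sets and 40.2% of those at or above the limit on every array. It was below both for 12 genes, or 17.4%, against 33.2%. Complex I carried much of this, with XEN1-3 above both for 23 of 27 genes and medians of 0.57 over IM8A1-I and 0.45 over IM8A1-II. Complex III had 6 of 8 genes above both (medians 0.41 and 0.69), complex IV 7 of 12 (0.45 and 0.11) and the ATP synthase 8 of 13 (0.08 and 0.20). In complex II it was 1 of 6, Sdhd (-0.17 and 0.08). The pattern was not particular to these genes. The summed signal of the pyruvate dehydrogenase and citric acid cycle genes described below was 8106, 8227 and 9759 units in XEN, highest in XEN1-3. Within that list Mdh2 had 1440, 1174 and 1824 units, while Dld ran the other way (726, 668 and 541). The sum of the mitochondrial import and chaperone genes was not highest in XEN1-3 (13542, 13022 and 13113). XEN1-3 and IM8A1 differ in line, strain and passage, and IM8A1-II differs from XEN1-3 in medium and substrate too. The fluid message was on the XEN1-3 record. Line, strain and passage, and for IM8A1-II also medium and substrate, cannot be told apart with 1 array. The part of the fluid fault in the result was not tested. Without XEN1-3 the median over the members against ES was -0.22.

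**Figure D3:**
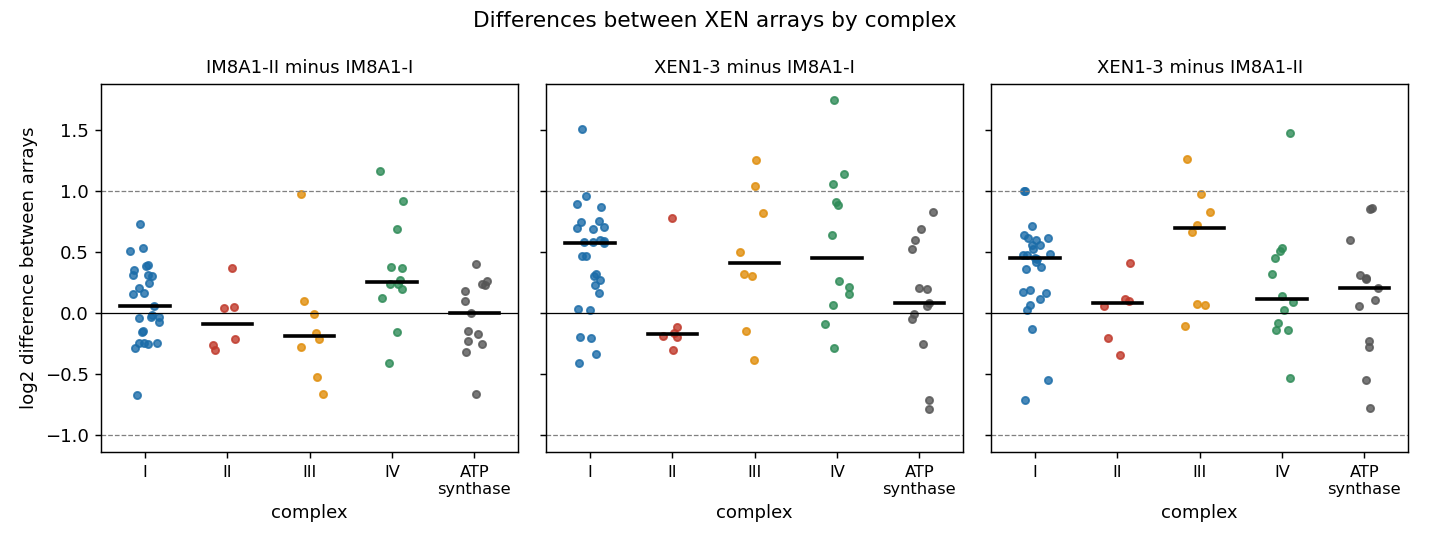
Log2 differences between pairs of XEN arrays (y axis) for each tested gene, by complex (x axis), with the median as a black bar and 2-fold as dashed lines. The medians of complexes I and III sit above 0 in both panels that set XEN1-3 against an IM8A1 culture and near or below 0.1 between the IM8A1 cultures.

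Among genes that reached 84.7 units on at least 1 array, the 3 largest gaps over each IM8A1 culture in favour of XEN1-3 were those of Cox6b2 (1.74 over IM8A1-I and 1.47 over IM8A1-II), Ndufc1 (1.51 and 1.0), Uqcr11 (1.26 and 1.26) and, over IM8A1-II, Ndufa6 (1.0, and 0.76 over IM8A1-I). Next over IM8A1-I came Cox4i1 (1.14), Cox6c (1.06) and Uqcrh (1.04). Cyc1 was 0.98 above IM8A1-II. In the other direction, Atp5g1, which did not reach 84.7 units, had the largest gap (-0.78 against each IM8A1 culture). Among the brighter genes, XEN1-3 was below IM8A1-I for Atp5g2 by 0.71, for Ndufaf4 by 0.70 and for Ndufb3 by 0.41, and below IM8A1-II for Ndufb3 by 0.71, for Ndufb9 and Atp5g2 by 0.54. Ndufb3 and Ndufb9 are membrane subunits of complex I, with 455 and 492 units in ES, 479.7 and 575 in the first IM8A1 culture, 594 and 664 in the second, and 358 and 453 in XEN1-3. Between the IM8A1 cultures, IM8A1-II was higher for Uqcrh by 0.98, Cox6c by 0.92 and Cox4i1 by 0.69 and lower for Ndufa10 by 0.67, Atp5e by 0.66 and Cyc1 by 0.66. These values are those of the chosen probe sets. On the second probe set of Cyc1 the IM8A1 cultures had 594.8 and 624.2 units, so that IM8A1-II was not the lower. The second, dimmer probe set of Cox4i1 read 35.0, 36.3 and 42.0 units in XEN, with smaller gaps than the chosen probe set. Ndufa10, an accessory subunit, had 55.0 units in ES and 94.0, 55.1 and 80.6 in XEN.

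**Figure D4:**
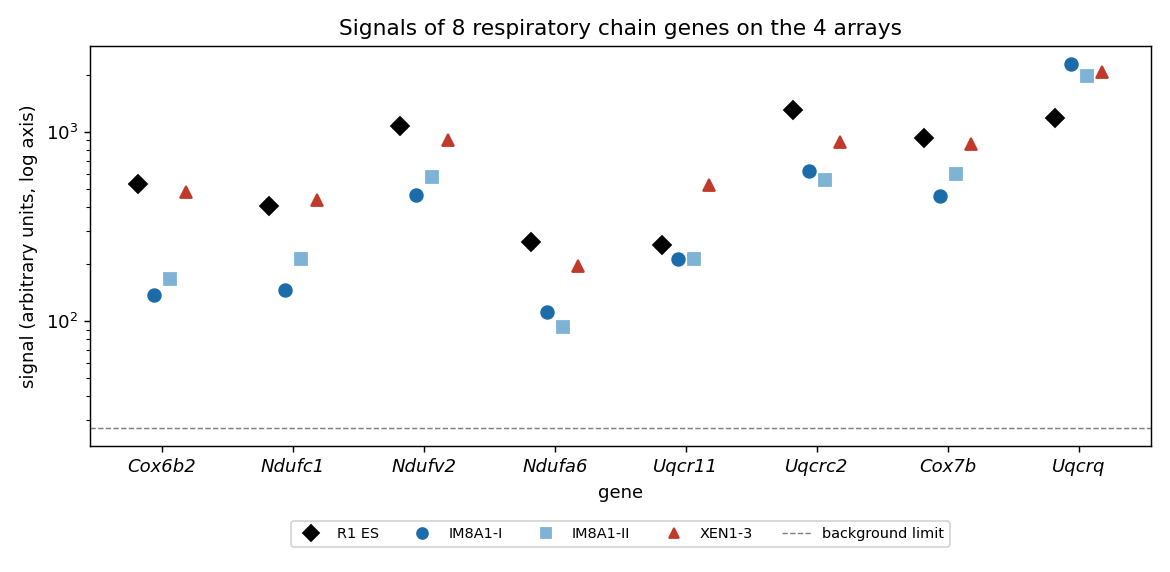
Signal in arbitrary units (log axis) of 8 genes on the 4 arrays, with the background limit of 27.3 units dashed. Cox6b2, Ndufc1, Ndufv2, Ndufa6, Uqcrc2 and Cox7b are lowest in the IM8A1 cultures with XEN1-3 nearer ES, Uqcr11 is highest in XEN1-3, and Uqcrq is higher than ES on all 3 XEN arrays.

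Several genes have more than 1 probe set, and these did not always run together. Of 11 genes with at least 2 tested probe sets, 8 had differences of both signs: Atp5d, Atp5g2, Atp5l, Cox6b2, Cyc1, Ndufa3, Ndufb2 and Ndufv2. Ndufb2 had 1084 units in ES and 656, 863 and 1207 in XEN on the chosen probe set (-0.30 ± 0.38) and 291, 327, 430 and 537 on another (0.52 ± 0.35). Of the chosen probe sets 56 have a plain identifier and 19 a suffix (13 f, 2 s, 2 r, 1 g and 1 i). Affymetrix gave f and s to sets that may read related transcripts. Respiratory genes have many near-identical pseudogene copies, so the levels of the f and s sets are uncertain. Those with r, g or i were not taken as settled either. Among the 19 are the chosen probe sets of Sdhb (s), Sdhaf1, Uqcrc2 and Cox6b2 (f) and Cox8b (r). The 50 tested genes with a plain identifier had a median of -0.02 and the 19 others -0.17. Another 10 probe sets carry several symbols and were left out, among them those of Cox7c, Ndufs5, Ndufs6, Ndufa11 and Ndufb4.

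The other nuclear genes of mitochondrial energy conversion were read from lists chosen by symbol. Of 15 tested pyruvate dehydrogenase and citric acid cycle genes 0 passed limma's test (median 0.01). Of 9 carriers and outer membrane channels 1 rose, against 5.56% of all probe sets. It was the dicarboxylate carrier Slc25a10, from 19.9 units in ES to 61.3, 81.7 and 102 in XEN (1.58 ± 0.35 in log2, limma adjusted p = 0.0476). Its ES value is under the limit. Of 17 assembly and cofactor genes and 12 genome maintenance and biogenesis genes 0 passed (medians -0.16 and -0.40). In the latter the single-stranded DNA binding protein gene Ssbp1 had 397 units in ES and 217, 213 and 204 in XEN (limma adjusted p = 0.0857). The same list also held Esrra, which ran the other way, with 124 units in ES and 246, 206 and 244 in XEN (0.85 ± 0.27, limma adjusted p = 0.106). Both are named after their values were seen.

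Mitochondrial ribosomal proteins make the mitochondrially encoded subunits of these complexes. Of 63 tested ribosomal and translation factor genes 3 fell and 0 rose, with a median of -0.28, against 5.04% of all probe sets that fell and 5.56% that rose. Mrpl45 fell from 986 units to 382, 307 and 314 (limma adjusted p = 0.0276), Mrpl15 from 508 to 194, 224 and 185 (0.0406) and Mrpl24 from 1093 to 509.5, 457 and 469.7 (0.0437). Of 23 import and chaperone genes 0 passed (median -0.28), and of 6 peroxide and superoxide removal genes 0 passed (median -0.74). In the last list Gpx4 had 667 units in ES and 319, 309 and 283 in XEN (limma adjusted p = 0.0526). The superoxide dismutase gene Sod2 had 236 units in ES and 46.5, 55.8 and 114 in XEN (limma adjusted p = 0.0833). Txn2 and Txnrd2 of that list had small positive differences (0.09 and 0.06). These genes, too, are named after their values were seen. The 13 mitochondrially encoded subunits matched no probe set by symbol.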

How the data were processed

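Total RNA of 4 cultures was measured on 1 Affymetrix MG_U74Av2 array each. The deposited table holds 1 linear intensity per probe set and array (12488 probe sets), scaled between arrays to near-equal trimmed means. The sources used here do not name the software that made it. Other entries, deposited with each array and read for chip type, lot and messages, are run records, per the file headers.

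The 66 control probe sets were left out. Values were scaled to a common 2% trimmed mean, 10.5 units (25th percentile) were added and log2 was taken. A probe set was tested if an array reached 27.3 units (40th percentile), which kept 8583. The 3 XEN arrays were set against the ES array in limma 3.58.1 (R 4.3.3; trended eBayes, residual df 2, prior df 3.76). The test was two-sided, p-values were Benjamini-Hochberg adjusted over all 8583, and the threshold was 0.05. The fit was also run on simulated data in which the ES array was given the spread of the XEN arrays. That run cannot check whether ES varies as XEN does. Array number limits the precision. XEN arrays were set against each other without a test.

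Symbols came from the platform annotation. The members, lists and tests were chosen with earlier results of these data known. Named were, by complex, the 4 largest and 2 smallest differences, isoform families, Sdh genes, Cycs, Cyc1, genes whose probe sets differ in sign, and the 3 largest differences each way between XEN arrays reaching 84.7 units (60th percentile), and list genes that passed. Promoter motifs were searched in RefSeq windows. Lists of 5 cell types served as marker checks. Figures were drawn with matplotlib 3.10.9.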

Additional observations from a re-analysis of the deposited data

Results flagged for a closer look

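For some of the 69 tested genes both IM8A1 cultures lay on one side of the ES array and XEN1-3 on the other, 10 with XEN1-3 above ES and 6 with it below. The share of all probe sets with this pattern was not counted, so the counts of 10 and 6 cannot be set against it. The difference between the lines was not tested, and XEN1-3 is 1 array. The values are XEN1-3 minus the mean of the IM8A1 cultures, in log2. Among the genes named by rule, XEN1-3 alone was above ES for Uqcr11 (1.26), Ndufc1 (1.25), Cox4i1 (0.79), Uqcrb (0.77), Atp5l (0.72), Cox7a2 (0.72), Ndufb2 (0.67) and Ndufa3 (0.53). It alone was below ES for Atp5g1 (-0.78), Atp5g2 (-0.63), Ndufb3 (-0.56) and Ndufb9 (-0.44). The same pattern was found for Ndufa8 (0.70), Ndufv1 (0.36), Cox5b (-0.21) and Ndufs1 (-0.16), which are outside that rule. The chosen probe sets carry these values, and second tested probe sets of 6 genes did not share the pattern. All 3 XEN arrays were above ES on those of Ndufa3, Ndufb2, Atp5g1 and Atp5g2, all 3 were below it for Cox4i1, and for Atp5l only IM8A1-II was. The median over complex I was -0.24 and -0.14 in IM8A1-I and IM8A1-II and 0.10 in XEN1-3 relative to ES, a gap of 0.29. That over complex IV was -0.44, -0.06 and 0.04, also a gap of 0.29.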

How the results depend on the processing

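No paired analysis was possible because the labels give no replicate numbers and ES is 1 array. Under 14 alternatives 0 members were called higher, and 0 lower except 1 (Cox7a1) with values raised to the limit and 0 to 3 with 1 XEN array left out. Over all probe sets, leaving out an array gave 190 to 784 higher and 179 to 716 lower calls, and raising values to the limit gave 238 higher. The median over the members ranged from -0.22 to 0.037 with an array left out. The ATP synthase median was -0.10 with the 60th percentile filter, -0.12 with median scaling, -0.13 with each XEN line counted once and -0.17 to -0.083 with an array left out. Over all alternatives the median of complex I ranged from -0.17 to 0.05 and that of complex IV from -0.29 to 0.06. That of the complex I assembly factors was -0.92 and -0.52 with offsets at the 5th and 50th percentiles, -0.93 with values raised and -0.89 with median scaling. The XEN1-3 minus IM8A1-I value of cytochrome c was 0.71 with the offset at the 50th percentile. Signs turned for these genes, none of which passed there: with median scaling Atp5o (-0.092), Ndufb3 (-0.059), Ndufs3 (-0.071) and Uqcrb (-0.095); with quantile normalization Cox7a2 (0.0054) and Ndufa3 (0.0054); with each line counted once Atp5o (-0.017), Cox7a2 (0.11), Cox8b (0.016), Ndufa3 (0.059) and Ndufb3 (-0.055); with the mean over probe sets Atp5g2 (0.15), Ndufa3 (0.28) and Ndufb2 (0.11). With an array left out the ranges that crossed 0 were Cox4i1 -0.40 to 0.17, Cox6c -0.39 to 0.14, Cox7a2 -0.25 to 0.21, Cox8b -0.059 to 0.048, Ndufa3 -0.21 to 0.14, Uqcrh -0.48 to 0.043, Atp5o -0.083 to 0.055, Ndufb3 -0.13 to 0.23, Atp5g2 -0.17 to 0.19, Ndufs3 -0.12 to 0.16, Uqcr11 -0.23 to 0.40 and Uqcrb -0.25 to 0.16. The cause was not tested.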
